A study of Mus musculus with 18 samples.

Results

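Aire, the autoimmune regulator, was followed as a transcript across the 6 groups of a study of mouse thymic epithelium. It is 1 of 23063 genes in each deposited table, and its row was taken by its symbol alone. The gene itself was chosen with earlier results of these data known. Each table gives 1 expression value for the gene as RPKM, a read density scaled by gene length and library size. The groups were mTEChi and mTEClo, medullary thymic epithelial cells (mTEC) of a hi and a lo sort gate, and cTEC, cortical thymic epithelial cells. Each population came from Aire knockout (KO) and wild-type (WT) mice aged 6 to 8 weeks, with 3 libraries per group and 18 in all. The labels give the strain B6.129S2-Airetm1.1Doi/J for every sample, WT included, and do not name the protein that the gates measure. They do not say that replicates came from separate mice, so the p-values cover no more than the spread among libraries, which may be technical. The series title contrasts promiscuous gene expression induced by Aire with that independent of it.

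Aire is a nuclear protein of medullary thymic epithelium that lets these cells transcribe genes otherwise restricted to peripheral tissues. Developing T cells that recognise the products are deleted or diverted, and loss of Aire in humans or mice causes autoimmunity against several organs. The gene is known to be transcribed mainly in mature mTEC with high MHC class II and CD80, downstream of RANK, CD40 and lymphotoxin signals that act through NF-kB. Cortical cells, which support positive selection of thymocytes, are not known for Aire protein.

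The deposited tables place Aire on chromosome 10 at chr10:78030022-78043610 (mm10), and the GENCODE M21 annotation has the same span on the minus strand. Its transcript Aire-204 has 14 exons and 1938 bases. The tm1.1Doi allele, as background, lacks exon 2. That exon is coding, lies at chr10:78042902-78043076 on the minus strand (GRCm38), and is 175 bases long, or 9.03% of the transcript. It is shown because it is the sequence that the mutant transcript lacks, with exon 2 in capitals and the last 20 bases of exon 1 and the first 20 of exon 3 in lower case.
Aire exon 2: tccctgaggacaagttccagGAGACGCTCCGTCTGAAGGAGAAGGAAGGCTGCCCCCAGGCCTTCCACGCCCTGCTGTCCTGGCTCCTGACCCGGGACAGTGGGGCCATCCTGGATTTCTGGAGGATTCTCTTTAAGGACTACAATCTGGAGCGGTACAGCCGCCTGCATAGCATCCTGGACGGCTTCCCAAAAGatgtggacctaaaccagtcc
The exon's length leaves a remainder of 1 when divided by 3. Joining exon 1 directly to exon 3 moves the first stop to codon 49, after 45 whole codons of exon 1, whereas the full reading frame has 553 codons with its stop. The deposited values are sums over the whole gene, so exon 2 cannot be told apart from the other 13 exons. A high Aire value in a KO library is therefore a level of transcript, not of functional protein, and Aire does not check the genotype labels here.

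The start of Aire lies close to that of Dnmt3l on the opposite strand, and the 250 bases before the Aire start are shown for that reason (chr10:78043611-78043860, minus strand, RefSeq GRCm38.p6). Capitals mark the matches to a TATA box, TATAAA, and to a CCAAT box, which stands here as its reverse complement ATTGG.
Aire upstream: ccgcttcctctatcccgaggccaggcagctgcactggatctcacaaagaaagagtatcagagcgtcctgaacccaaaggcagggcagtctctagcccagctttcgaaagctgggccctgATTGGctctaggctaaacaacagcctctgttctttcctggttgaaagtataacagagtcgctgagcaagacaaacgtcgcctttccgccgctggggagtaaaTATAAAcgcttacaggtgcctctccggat
The first base of TATAAA was 29 bases before the start, and that of the CCAAT match was 131 before it. Searched on both strands, TATAAA was in 12.4% and CCAAT in 33.8% of 32851 promoter windows of the same length. The letters GGGCGG, a GC box, had 0 matches in these 250 bases and were in 32.7% of the windows.

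The 18 libraries held 4.54 to 18.1 Gb of aligned bases on genes, and Aire alone held 0.0589 to 31.8 Mb of them. The correlation of log2 values between replicates of a group was 0.978 to 0.996, lowest in KO cTEC. The cell type labels were checked by markers. Fezf2 and Cd80 were highest in mTEChi, Krt5 in mTEClo, and Enpep, a cortical marker, in cTEC. Not all listed markers followed these. Cd274, a mature mTEC marker, was in cTEC at 182% of its mTEChi mean in KO and 145% in WT. The median log2 difference of 7 immature mTEC markers, mTEClo minus cTEC, was -0.05 in KO and 0.16 in WT. At a limma adjusted p under 0.05, 4 of 12 cTEC markers in KO and 3 in WT were higher in mTEChi than in cTEC. Over all 19451 genes tested, 5174 and 9063 were. Markers of other cell types were above 0 in the sorted cells of every population. As these are bulk samples, fewer cells of a type and less RNA per cell cannot be told apart.

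Aire was among the most abundant transcripts of mTEChi in both genotypes, and it was higher in the KO libraries. KO mTEChi had 1126, 1001 and 1091 RPKM of Aire, against 658, 681 and 693 RPKM in WT mTEChi. The means were 1073 ± 64.5 and 677 ± 17.9 RPKM (SD, n = 3 each), and the groups did not overlap. Ranked by RPKM among the 23063 genes, Aire was 14th, 16th and 14th in KO mTEChi and 20th, 19th and 18th in WT mTEChi. It took 0.315%, 0.273% and 0.311% of all bases on genes in KO mTEChi, and 0.180% to 0.193% in WT mTEChi.

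In mTEClo, KO libraries had 33.1, 21.5 and 16.3 RPKM of Aire, against 7.75, 9.13 and 12.8 RPKM in WT libraries. The means were 23.6 ± 8.64 and 9.90 ± 2.62 RPKM (SD, n = 3 each), again without overlap. In cTEC, KO libraries had 95.6, 35.9 and 27.0 RPKM, against 2.09, 3.95 and 7.39 RPKM in WT libraries. The cTEC means were 52.8 ± 37.3 and 4.47 ± 2.69 RPKM (SD, n = 3 each), and KO cTEC replicate 1 stood well above the other two. The order of the group means thus ran from KO mTEChi and WT mTEChi down through KO cTEC, KO mTEClo and WT mTEClo to WT cTEC. Of the neighbours in this order, KO cTEC and KO mTEClo overlapped.

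**Figure D1:**
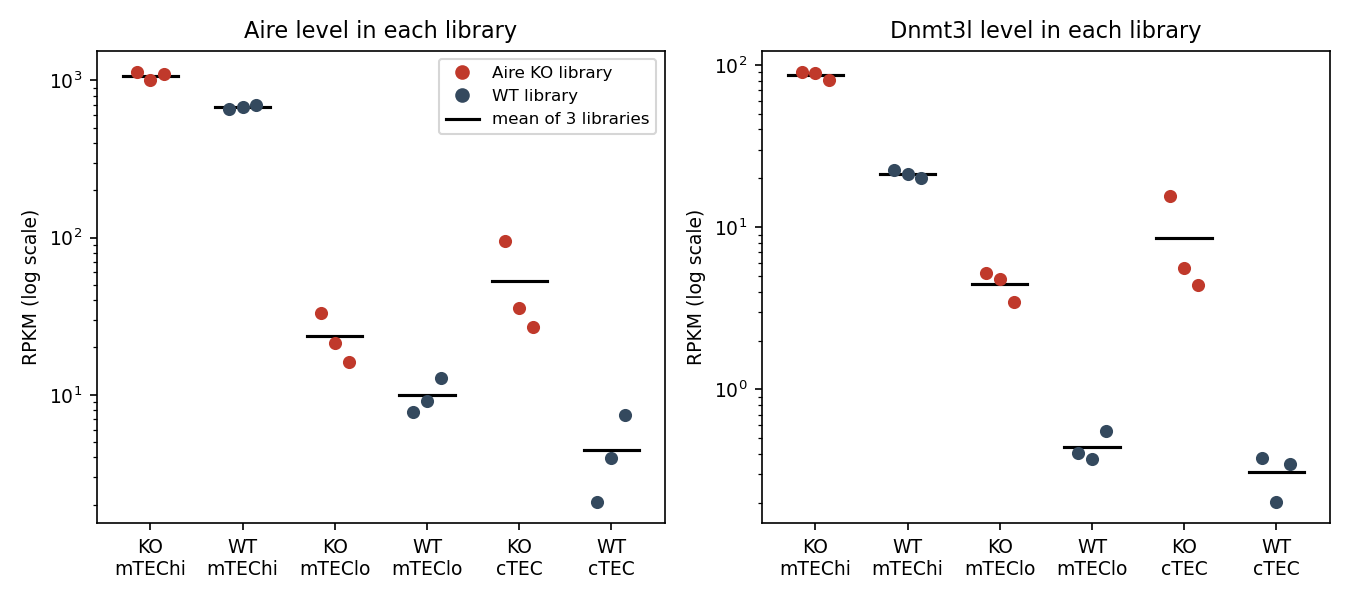
Aire (left) and its neighbour Dnmt3l (right) in RPKM on log axes, with 1 point per library, KO groups in red left of WT groups in dark blue, and a black line at the mean of 3 libraries. For both genes each KO library lay above every WT library of its population, and within each genotype every mTEChi library lay above the mTEClo and cTEC libraries.

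The first question was whether the level of the Aire transcript differed between genotypes in each population. Every one of the 9 KO libraries lay above all WT libraries of its population, which 601 of 19451 tested genes (3.09%) did in all 3 populations. Fold changes are differences of means on the log2(RPKM + 0.1) scale, and a gene was called at an adjusted p under 0.05 in limma. The fit used all 18 libraries, with 1 estimate of the spread per gene. The spread of Aire on that scale was unequal, with an SD of 0.09 and 0.04 in KO and WT mTEChi, 0.51 and 0.37 in KO and WT mTEClo, and 0.96 and 0.89 in KO and WT cTEC. A fit of only the groups compared was therefore set beside it, and it changed the call of the genotype difference in mTEChi and in cTEC.

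In mTEChi the mean of Aire in KO was 1.58 times that in WT, a log2 difference of 0.66. This was not called in the fit of all libraries (SE 0.43, adjusted p = 0.19), and it was called when the mTEChi libraries were fitted alone (SE 0.11, adjusted p = 0.0010, 95% interval 0.40 to 0.93). The background was 62.4% of genes called in the fit of all libraries and 70.4% in the fit of these groups alone, and genes called higher made up 9.57% in the fit of all libraries. The median of all genes was lower in KO by 0.39 on the log2 scale. Quantile normalization, which moved that median by 0.46, left an Aire difference of 0.29, and centring on housekeeping genes gave 0.79. All 3 KO libraries were above the 3 WT libraries, which held for 14.1% of genes.

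In mTEClo the KO mean was 2.39 times the WT mean, a log2 difference of 1.22 that missed the threshold (SE 0.43, adjusted p = 0.066, and 0.051 with the mTEClo libraries alone). The background here was 16.0% of genes called, 7.93% called higher, 8.04% called lower and 17.2% higher without overlap, with 18.9% called in the fit of these groups alone. The call changed when a cTEC library was left out: the adjusted p was 0.018 and 0.046 without KO cTEC replicates 1 and 3, and 0.040 and 0.041 without WT cTEC replicates 1 and 3.

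In cTEC the KO mean was 11.8 times the WT mean, a log2 difference of 3.49 (SE 0.43, adjusted p = 4.1e-05). Here 20.1% of genes were called, 13.3% were called higher, 6.76% were called lower and 15.2% were higher without overlap. With the cTEC libraries fitted alone the same difference had an SE of 0.67 and an adjusted p of 0.098, and 18 genes in all (0.0925%) were called in that fit. The other genes given below with a p-value in cTEC had adjusted p-values of 0.074 to 0.27 in it. The calls in cTEC given below rest on the spread shared across all 18 libraries. Exact two-sided permutation tests of 3 against 3 libraries gave p = 0.1 for each of these genotype differences, the smallest that this design allows.

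**Figure D2:**
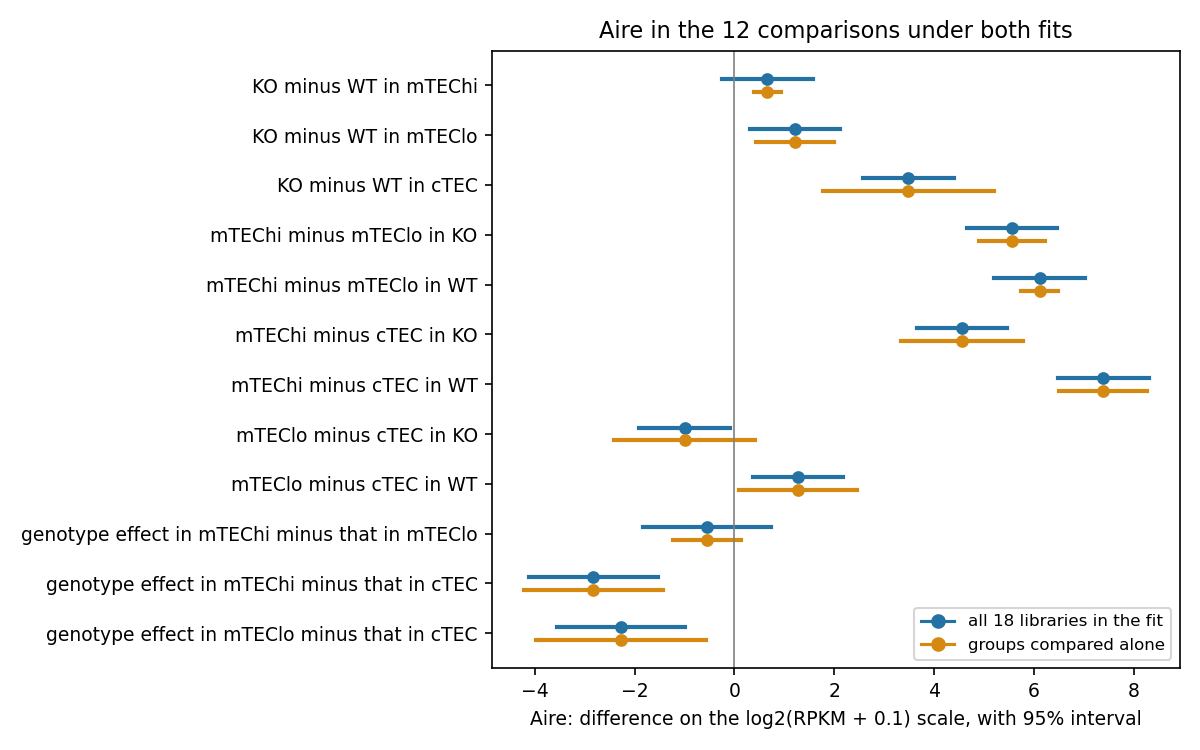
Differences of Aire on the log2(RPKM + 0.1) scale in the 12 comparisons, with 95% intervals, from the fit of all 18 libraries (blue) and from the groups compared alone (orange). The interval of KO minus WT in mTEChi reached from 0.40 to 0.93 with its groups alone and crossed 0 in the fit of all libraries, whereas that in cTEC was wider with its groups alone.

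The genotype differences themselves were compared between populations. The genotype effect in mTEChi minus that in cTEC was -2.82 (SE 0.60, adjusted p = 0.0011 in limma, and 0.0036 with these groups alone), so the KO excess was larger in cTEC on the log scale. Of all genes, 49.9% were called in this comparison, and 45.4% with these groups alone. In the fit of all libraries 89.7% of the calls were negative, and the median of all genes was -0.44. The effect in mTEClo minus that in cTEC was -2.27 (adjusted p = 0.046), where 4.24% of genes were called, but this call was lost with the groups alone (adjusted p = 0.21, 0.74% of genes called) and under most other settings. The effect in mTEChi minus that in mTEClo was -0.55 (95% interval -1.84 to 0.73, adjusted p = 0.48), where 46.9% of genes were called.

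The second question was how steeply Aire was set apart between populations within a genotype. In KO, the mean in mTEChi was 45.4 times that in mTEClo and 20.3 times that in cTEC (log2 differences of 5.56, adjusted p = 9.5e-09, and 4.56, adjusted p = 9.4e-08). In WT, the mean in mTEChi was 68.4 times that in mTEClo and 151 times that in cTEC (6.11, adjusted p = 3.2e-09, and 7.39, adjusted p = 2.4e-10). All 4 calls held with the groups alone, and the shares of genes called were 67.1% and 67.8% in KO and 72.8% and 78.4% in WT. With the groups alone they were 70.5% and 61.3% in KO and 75.4% and 77.4% in WT. KO mTEClo and KO cTEC thus held 2.20% and 4.92% of the KO mTEChi mean, and WT mTEClo and WT cTEC 1.46% and 0.660% of the WT mTEChi mean.

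Between mTEClo and cTEC the order of Aire was turned round between the genotypes, with a wide error. In KO, mTEClo had 23.6 ± 8.64 RPKM and cTEC 52.8 ± 37.3 RPKM (SD, n = 3 each), a log2 difference of -1.0 with overlapping libraries (adjusted p = 0.081, exact permutation p = 0.2). Without KO cTEC replicate 3, this difference was -1.37 and passed the threshold (adjusted p = 0.027). These tests take the libraries as unpaired. Within each replicate number, KO cTEC lay above KO mTEClo, although the groups overlapped. The labels do not say whether the numbers pair the libraries. In WT, mTEClo had 9.90 ± 2.62 RPKM and cTEC 4.47 ± 2.69 RPKM (SD, n = 3 each), a difference of 1.27 without overlap (adjusted p = 0.024). The WT call was lost with these groups alone (adjusted p = 0.086) and without WT mTEClo replicate 2 or 3 or WT cTEC replicate 1 or 2 (adjusted p = 0.050 to 0.14). Genes called made up 36.8% in KO and 42.7% in WT, where 39.3% were called with these groups alone and 29.3% were higher without overlap.

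Dnmt3l, which encodes a cofactor of DNA methyltransferases known from germ cells, is the nearest neighbour of Aire. Its log2 differences between genotypes were larger than those of Aire, but the genes were not tested against each other. Dnmt3l lies on the plus strand, and in the deposited tables its span (78042287-78063615) shares 1324 bases with Aire. That span contains exon 2 of Aire (78042902-78043076), which the tm1.1Doi allele lacks, so the allele alters the Dnmt3l locus too. Whether this bears on the level of Dnmt3l was not tested. The exons of the annotated genes share 67 bases, or 1.75% of the exonic bases of Aire and 2.24% of those of Dnmt3l. Aire had the higher RPKM in every library, and how much of the Dnmt3l value its reads could make up was not tested. Whether the counting used strand is not given in the sources used here, so reads from the overlap cannot be told apart between the genes.

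In mTEChi, KO libraries had 90.1, 89.5 and 80.1 RPKM of Dnmt3l, against 22.4, 21.2 and 20.1 RPKM in WT libraries (log2 difference 2.02, SE 0.33, adjusted p = 6.1e-05). In mTEClo, KO libraries had 5.20, 4.80 and 3.44 RPKM, against 0.405, 0.373 and 0.555 RPKM in WT (3.07, adjusted p = 5.9e-05). In cTEC, KO libraries had 15.6, 5.60 and 4.41 RPKM, against 0.378, 0.203 and 0.345 RPKM in WT (4.20, adjusted p = 1.0e-06, and 0.076 with the cTEC libraries alone). Dnmt3l therefore rose in KO in each population, and as for Aire its level in KO cTEC replicate 1 was the highest of the cTEC libraries. Its WT levels in mTEClo and cTEC were close to the added 0.1, on which the differences there depend. The genotype effect on Dnmt3l in mTEChi minus that in cTEC was -2.18 (adjusted p = 0.0011).

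The other genes within 5 places on either side varied. Icosl, 25.8 kb away, encodes the ligand of the T cell costimulator ICOS. It had 261, 248 and 261 RPKM in KO mTEChi, against 162, 147 and 155 RPKM in WT mTEChi (0.73, adjusted p = 0.021). That call was lost after quantile normalization (adjusted p = 0.090) and without KO mTEChi replicate 1 or 3 or WT mTEChi replicate 2 (adjusted p = 0.051 to 0.058). Pfkl, the liver form of phosphofructokinase, lies 20.2 kb away on the other side. It had 30.9, 30.6 and 24.8 RPKM in KO mTEChi, against 19.3, 18.3 and 16.96 RPKM in WT mTEChi (0.65, adjusted p = 6.0e-05). The weakly expressed 1700009J07Rik was also called higher in KO mTEChi (1.19, adjusted p = 0.017), at under 1 RPKM in every library.

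Pwp2, a gene of ribosome assembly, was lower in KO mTEChi (-0.54, adjusted p = 0.00041), but it was at 0.091 after quantile normalization. Lrrc3, Trpm2, 1810043G02Rik, D10Jhu81e, Trappc10 and Agpat3 were not called in mTEChi, with differences of 0.17, -0.50, -0.21, 0.19, 0.14 and -0.02. Of these, Trpm2 was at 0.47, 1810043G02Rik at 0.24 and Agpat3 at 0.032 after quantile normalization. Of the 11 neighbours, 4 were called higher and 1 lower in KO mTEChi, against 9.57% and 52.8% of all genes.

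**Figure D3:**
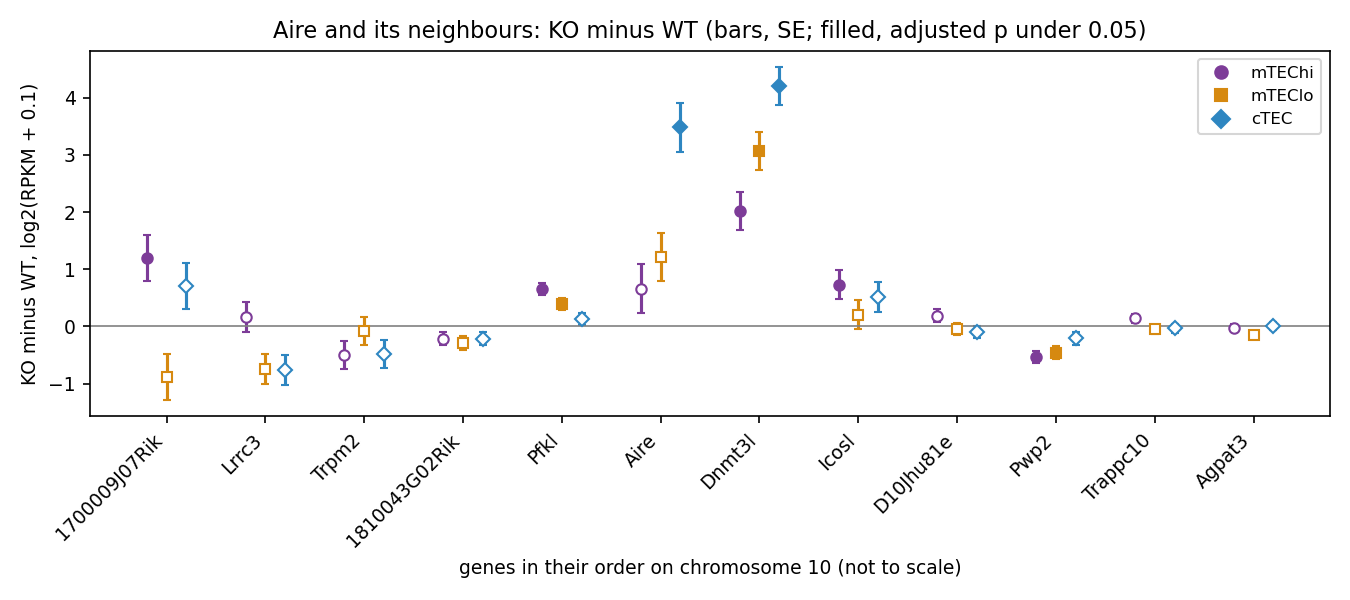
KO minus WT on the log2(RPKM + 0.1) scale for Aire and 11 neighbours in their order on chromosome 10, with SE, in mTEChi (purple circles), mTEClo (orange squares) and cTEC (blue diamonds); filled symbols passed an adjusted p of 0.05. Dnmt3l was at 2.02, 3.07 and 4.20 in the 3 populations, above Aire at 0.66, 1.22 and 3.49. Pfkl at 0.65, Icosl at 0.73 and 1700009J07Rik at 1.19 were also called higher in mTEChi, and Pwp2 at -0.54 lower.

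The 10 genes whose levels followed Aire most closely over the 18 libraries had a Pearson r of 0.992 to 0.997 on the log2 scale. They were taken from 8191 genes with a mean of at least 10 RPKM in some group, and r is given as a description, since all genes share the libraries and the 6 groups. They were Hdc, Grin2c, Csn2, Dnase1l3, Cldn13, Sspo, Grap, Aif1l, P2rx3 and Adgb, and none lies among the neighbours. By Spearman's rho 3 of these 10 stayed among the 10 closest, and with WT libraries only 4 did.

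Hdc, histidine decarboxylase, was the closest (r = 0.997). It had 543, 531 and 442 RPKM in KO mTEChi, against 294, 293 and 269 RPKM in WT mTEChi, a difference of 0.82 that was not called (adjusted p = 0.067, and 0.00019 with these groups alone). In cTEC it had 57.5, 21.4 and 17.1 RPKM in KO libraries, against 2.41, 4.27 and 5.54 RPKM in WT libraries (2.81, adjusted p = 8.0e-05). The profile of Hdc thus had the same wide step in cTEC and the same high KO cTEC replicate 1 as Aire.

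Csn2, the milk protein beta-casein, reached a higher level than Aire in KO mTEChi. It had 1266, 1358 and 1236 RPKM there, against 689, 762 and 710 RPKM in WT mTEChi (0.84, adjusted p = 0.076, and 0.00038 with these groups alone). In cTEC it had 147, 60.1 and 48.8 RPKM in KO and 3.23, 7.73 and 9.44 RPKM in WT (3.59, adjusted p = 1.8e-05). Grin2c, an NMDA receptor subunit, had 99.9, 90.6 and 98.6 RPKM in KO mTEChi, against 41.7, 49.4 and 43.9 RPKM in WT mTEChi (1.10, adjusted p = 0.026). That call was lost without KO mTEChi replicate 1 or 3 or WT mTEChi replicate 1 or 3, with an adjusted p of 0.060 to 0.070.

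Of the other close genes, Aif1l (0.97, adjusted p = 0.012) and Adgb (0.98, adjusted p = 0.014) were also called higher in KO mTEChi. Sspo at 0.75, Grap at 0.62, P2rx3 at 0.51, Cldn13 at 0.47 and Dnase1l3 at 0.22 were not. In cTEC their differences ran from 1.99 for Dnase1l3 to 3.59 for Grin2c and Csn2. The genes were chosen for their likeness to Aire in these same libraries, so their genotype differences and p-values in every population are a description of that choice and support nothing further.

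The genes that act above Aire were then described by role, and the counts of each list in mTEChi are to be read against 9.57% of all genes called higher and 52.8% called lower, with a median of -0.39. Among the TNF family ligands and the decoy receptor, 0 of 6 were higher in KO mTEChi and 2 lower, a share of lower calls under that of all genes, and the list median was -0.41. The 2 were Tnfsf11, which encodes RANK ligand, at -1.90 (adjusted p = 0.0021) and Tnfsf14, which encodes LIGHT, at -1.91 (adjusted p = 0.00024), both at 1.29 RPKM or less in every mTEChi library. Tnfrsf11b, which encodes the decoy receptor osteoprotegerin, had 95.1, 102 and 85.9 RPKM in KO mTEChi and 64.4, 66.2 and 63.0 RPKM in WT mTEChi. Its difference of 0.54 was not called (adjusted p = 0.064), and was called with these groups alone (adjusted p = 0.00021).

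Of 5 receptors, 0 were higher and 2 lower in KO mTEChi, against 9.57% and 52.8% of all genes, with a median of -0.21. Tnfrsf11a, which encodes RANK, had 63.4, 62.9 and 69.3 RPKM in KO mTEChi and 44.97, 45.5 and 43.1 RPKM in WT mTEChi (0.55, adjusted p = 0.10, and 6.4e-05 with these groups alone). Cd40 had 91.3, 95.9 and 78.6 RPKM in KO and 109, 101 and 96.9 RPKM in WT (-0.21, adjusted p = 0.57). Ltbr, the lymphotoxin beta receptor, fell to 11.2, 11.1 and 11.2 RPKM in KO mTEChi, against 19.2, 18.6 and 17.7 RPKM in WT mTEChi (-0.72, adjusted p = 9.5e-06). Tnfrsf1a, a TNF receptor, also fell (-0.39).

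Inside the cell, the adaptors and kinases had 4 of 11 members higher and 1 lower in KO mTEChi, against 9.57% and 52.8% of all genes, with a median of 0.20. Traf6, an adaptor of RANK and CD40, had 41.9, 39.2 and 39.0 RPKM in KO mTEChi, against 24.8, 23.6 and 27.2 RPKM in WT mTEChi (0.67, adjusted p = 7.0e-07). Map3k14, the NF-kB-inducing kinase, had 42.4, 40.2 and 41.2 RPKM in KO mTEChi, against 24.2, 25.2 and 24.6 RPKM in WT mTEChi (0.74, adjusted p = 1.0e-04). Birc3 at 0.41 and Traf2 at 0.36 rose as well, and Traf5 fell (-1.64).

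Among 10 NF-kB subunits and inhibitors, 1 was higher and 2 were lower in KO mTEChi, against 9.57% and 52.8% of all genes, with a median of 0.11. Nfkbia, the inhibitor IkB-alpha, was the one that rose (0.89, adjusted p = 6.8e-05). It had 1129, 1167 and 1150 RPKM in KO mTEChi, against 646, 626 and 588.8 RPKM in WT mTEChi. It was also higher in KO mTEClo (0.60, adjusted p = 0.012) and in KO cTEC (0.96, adjusted p = 0.00024). Tnfaip3 at -0.63 and Bcl3 at -0.41 fell. Relb, a subunit of the alternative pathway, had 165, 164 and 144 RPKM in KO mTEChi and 112, 114 and 119 RPKM in WT mTEChi (0.45, adjusted p = 0.061, and 0.00067 with these groups alone). Its partner Nfkb2 was at 0.21 (adjusted p = 0.28, and 0.016 with these groups alone), and Rela at 0.03 (adjusted p = 0.79).

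Of 10 other genes linked to Aire transcription, 1 was higher and 4 lower in KO mTEChi, near or under the 9.57% and 52.8% of all genes, with a median of -0.22. Irf8, an interferon regulatory factor, had 269, 274 and 259 RPKM in KO mTEChi, against 110, 120 and 106 RPKM in WT mTEChi (1.26, adjusted p = 7.2e-06). Ets1 at -0.73, Hdac3 at -0.38 and Ctcf at -0.25 fell, as did Prdm1 at -0.89, which was at 0.37 after quantile normalization. Jmjd6, an enzyme linked to Aire splicing in mice, was at -0.19 (adjusted p = 0.072) and at 0.0048 after that normalization.

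**Figure D4:**
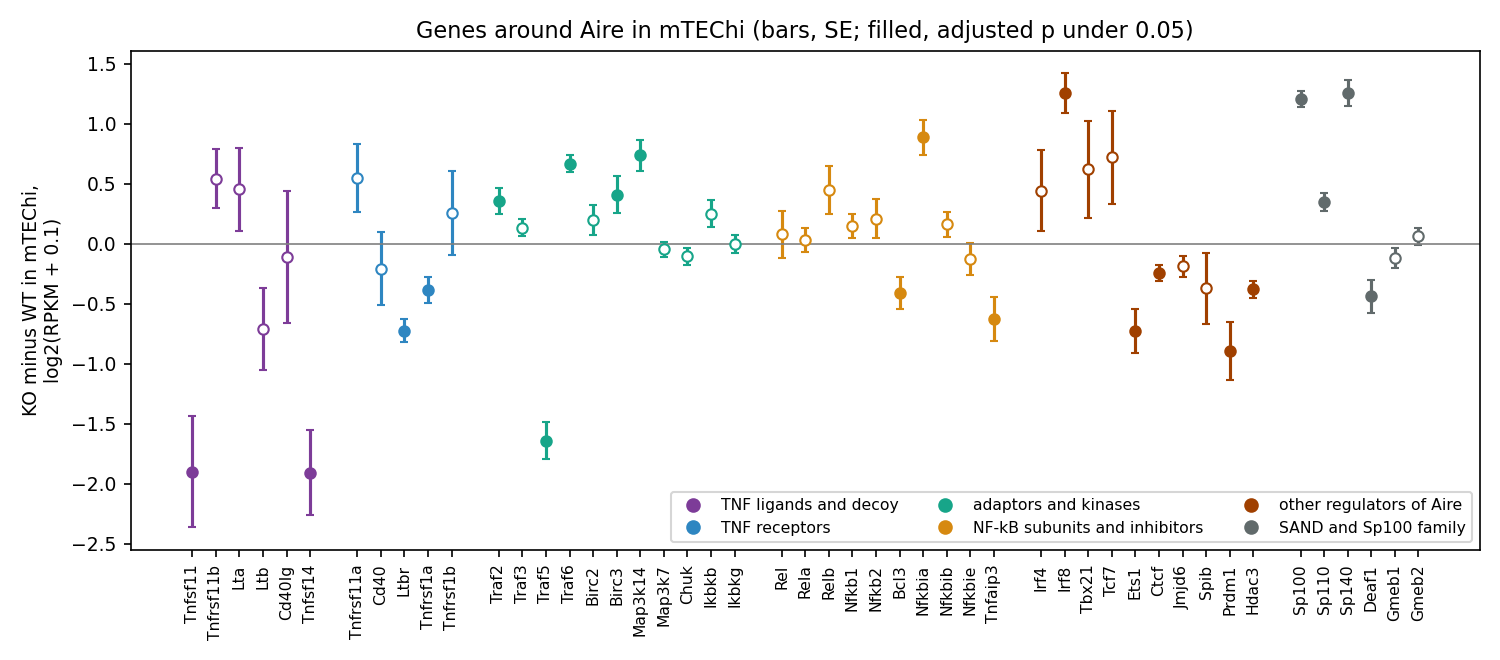
KO minus WT in mTEChi on the log2(RPKM + 0.1) scale for 6 lists of genes around Aire, with SE; filled symbols passed an adjusted p of 0.05 and colours mark the lists. Irf8 at 1.26, Sp140 at 1.26 and Sp100 at 1.21 lay highest, and Tnfsf14 at -1.91 and Tnfsf11 at -1.90 lowest.

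The same upstream genes were set apart between WT populations. RANK and CD40 were higher in WT mTEChi than in WT mTEClo, by 1.11 for Tnfrsf11a (adjusted p = 0.0021) and 2.92 for Cd40 (adjusted p = 3.4e-07). Osteoprotegerin, Tnfrsf11b, was higher by 2.92 (adjusted p = 2.6e-08), Irf8 by 2.04 (adjusted p = 1.9e-08), Nfkb2 by 1.16 (adjusted p = 9.5e-06) and Relb by 1.13 (adjusted p = 9.9e-05). Ltbr went the other way, with 19.2, 18.6 and 17.7 RPKM in WT mTEChi, against 39.6, 41.0 and 43.8 RPKM in WT mTEClo (-1.16, adjusted p = 2.9e-08). Over all genes, 41.6% were called higher and 31.1% lower in this comparison. Most of the lists were mixed in it. Of 6 ligands and decoy 5 were called higher and 0 lower, and of 5 receptors 3 and 2. Of 11 adaptors and kinases 5 were higher and 1 lower. Of 10 NF-kB genes 6 were higher and 4 lower, and of 10 other regulators 4 and 4.

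The relatives of Aire that share its SAND or Sp100 domain had 3 of 6 members higher and 1 lower in KO mTEChi, against 9.57% and 52.8% of all genes, with a median of 0.21. Sp140 had 43.6, 43.9 and 41.6 RPKM in KO mTEChi, against 18.5, 17.99 and 17.3 RPKM in WT mTEChi (1.26, adjusted p = 8.4e-08). Sp100, a component of nuclear bodies, had 76.3, 76.9 and 78.4 RPKM in KO mTEChi, against 33.0, 33.9 and 33.1 RPKM in WT mTEChi (1.21, adjusted p = 4.1e-10). In mTEClo the sign of Sp100 was turned round, with 51.0, 60.0 and 53.1 RPKM in KO and 73.4, 69.6 and 71.2 RPKM in WT (-0.39, adjusted p = 0.0016). The genotype effect on Sp100 in mTEChi minus that in mTEClo was 1.60 (adjusted p = 3.5e-09).

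Sp110 also rose in KO mTEChi (0.35, adjusted p = 0.00070). Deaf1, known to regulate tissue antigens in lymph node stroma, was lower (-0.44, adjusted p = 0.013) but at 0.12 after quantile normalization. Gmeb1 and Gmeb2 were not called, at -0.12 and 0.06, and Gmeb1 was at 0.48 after that normalization.

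Of 24 measured genes for proteins that bind or work with Aire, 2 were higher and 13 lower in KO mTEChi, with a median of -0.23. These counts were near the 9.57% and 52.8% of all genes, and the median of all genes was lower, at -0.39. Of the 13, Prkdc at -0.56 was at 0.085 after quantile normalization. Chd4, a chromatin remodeller, fell to 21.5, 20.9 and 21.4 RPKM in KO mTEChi, against 36.1, 35.0 and 38.6 RPKM in WT mTEChi (-0.78, adjusted p = 2.3e-08). The 2 that rose were named after their values were seen: the acetyltransferase Crebbp (1.03) and the deacetylase Sirt1. Sirt1 had 207, 205 and 208 RPKM in KO mTEChi, against 126, 130 and 124 RPKM in WT mTEChi (0.70, adjusted p = 0.00053). Ddx5, an RNA helicase and the most abundant of the list in WT mTEChi, was at 0.17 (adjusted p = 0.10) and at -0.076 after quantile normalization.

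Markers of mature mTEC moved with Aire in mTEChi, and their part in its genotype difference was not tested. Of 14 markers, 8 were higher in KO mTEChi and 1, the chemokine Ccl22, lower (-1.65), against 9.57% and 52.8% of all genes, with a median of 0.49. The 8 were Ciita, the MHC class II genes H2-Aa, H2-Ab1 and H2-Eb1, and Ctss, Cldn3, Cldn4 and Pdcd1lg2. Cd80, Cd86, Fezf2, Cd74 and Cd274 were not called. The summed level of the list was 24933 to 27503 RPKM in KO mTEChi and 17824 to 19225 RPKM in WT mTEChi. Ciita, the activator of MHC class II genes, rose (0.44, adjusted p = 0.0020), as did its target H2-Aa (0.50, adjusted p = 0.039), whose call was lost under 14 of 29 alternatives. Cd80 had 102, 98.9 and 103 RPKM in KO mTEChi and 78.1, 76.0 and 76.8 RPKM in WT mTEChi (0.39, adjusted p = 0.42, and 0.00021 with these groups alone). Cd86 was at 0.52 (adjusted p = 0.28, and 6.9e-05 with these groups alone).

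Fezf2, another transcription factor of tissue antigens in mTEC, had 216, 218 and 210 RPKM in KO mTEChi and 216, 228 and 213 RPKM in WT mTEChi. Its difference was -0.03 (adjusted p = 0.92), and 0.096 after centring on housekeeping genes. The ratio of Aire to Fezf2, chosen after the values were seen, was 5.21, 4.58 and 5.21 in KO mTEChi, against 3.05, 2.98 and 3.26 in WT mTEChi. The ratio of Aire to Cd80 was 11.1, 10.1 and 10.6 in KO mTEChi, against 8.43, 8.95 and 9.02 in WT mTEChi. The genotypes did not overlap in either ratio in mTEChi, and they lay closer together relative to Cd80. The share of all genes whose ratios keep the genotypes apart in this way was not worked out.

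Other marker lists also differed between the mTEChi groups. Of 7 immature mTEC markers 1 rose and 6 fell in KO mTEChi, against 9.57% and 52.8% of all genes, with a sum of 301 to 340 RPKM in KO and 677 to 835 RPKM in WT. The basal keratin Krt5 fell to 67.9, 86.1 and 80.5 RPKM in KO mTEChi, against 408, 297 and 323 RPKM in WT mTEChi (-2.12, adjusted p = 3.6e-09). Of 12 cTEC markers 4 rose and 6 fell, the falls near the share of all genes, with a sum of 927 to 1068 RPKM in KO and 642 to 755 RPKM in WT. The peptidase Enpep was lower (-2.79, adjusted p = 4.1e-07) and the chemokine Ccl25 higher (0.99, adjusted p = 0.0042).

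The markers of blood and stromal cells are given beside the 52.8% of all genes called lower and the median of -0.39. Of 8 B cell markers 1 rose and 3 fell, with a median of -0.0019 and Fcer2a at -1.73, and the sum was 59.1 to 62.3 RPKM in KO and 69.3 to 72.9 RPKM in WT. Of 11 dendritic cell and macrophage markers 0 rose and 9 fell, with Emr1 at -4.12 and Zbtb46, not called, at 0.61, and the sum was 22.6 to 23.4 RPKM in KO and 36.5 to 39.8 RPKM in WT. Of 11 thymocyte markers 0 rose and 5 fell, with Ptcra at -2.0 and Lck at -1.13, and the sum was 16.9 to 30.6 RPKM in KO and 43.6 to 71.0 RPKM in WT.

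Of 7 fibroblast markers 1, Dcn at 1.04, rose and 5 fell, with Col1a1 at -5.81, and the sum was 36.9 to 46.8 RPKM in KO and 44.5 to 49.3 RPKM in WT. Of 6 endothelial markers 0 rose and 3 fell, with Flt1 at -1.40 and Pecam1, not called, at -0.17, and the sum was 7.32 to 9.84 RPKM in KO and 11.9 to 16.2 RPKM in WT. Among 12 housekeeping genes 1 rose and 4 fell, with Polr2a at -0.56 and B2m, not called, at 0.15. After quantile normalization Ms4a1, Clec9a, Itgax, Pdgfra, Kdr and Psmb11, all called lower, had a positive sign, as did Pecam1, while B2m had a negative one.

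In cTEC, some markers of mature mTEC and several regulators moved with Aire between the genotypes, most called markers of immature mTEC and fibroblasts moved the other way, and their part in its difference was not tested. Of 14 mature mTEC markers, 6 were higher in KO cTEC and 0 lower, against 13.3% and 6.76% of all genes, with a median of 0.67, against -0.0065 over all genes. Fezf2 had 31.9, 19.2 and 13.4 RPKM in KO cTEC, against 4.35, 7.02 and 5.74 RPKM in WT cTEC (1.83, adjusted p = 4.8e-05). Cd80 had 21.3, 8.81 and 6.15 RPKM in KO cTEC, against 1.5, 3.98 and 5.76 RPKM in WT cTEC (1.65, adjusted p = 0.0086). The other 4 were named after their values were seen. They were the tight junction genes Cldn4 (2.55) and Cldn3 (2.48), the protease gene Ctss and Pdcd1lg2. The summed level of the list, most of it MHC class II genes and Cd74, was 8987 to 9125 RPKM in KO cTEC and 8483 to 9476 RPKM in WT cTEC.

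Among the regulators, Spib, a transcription factor of mTEC, had 93.6, 35.6 and 37.9 RPKM in KO cTEC, against 6.40, 14.1 and 10.2 RPKM in WT cTEC (2.36, adjusted p = 5.0e-05). Tnfrsf11a, with RANK as its product, had 18.1, 8.997 and 6.79 RPKM in KO cTEC, against 2.49, 4.36 and 5.19 RPKM in WT cTEC (1.41, adjusted p = 0.0021). Tnfrsf11b was higher by 1.37 (adjusted p = 9.0e-04) and Sirt1 by 0.95 (adjusted p = 0.00024). Of the 10 other regulators 4 rose, Spib, Prdm1, Irf8 and Tbx21, and 0 fell, against 13.3% and 6.76% of all genes. KO cTEC replicate 1 had the highest level of Aire, Dnmt3l, Fezf2, Cd80, Spib and Tnfrsf11a among the cTEC libraries.

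Of 12 cTEC markers limma called 0 in KO cTEC, where 0 were higher and 2 lower at an unadjusted p under 0.05, with a sum of 1328 to 2304 RPKM in KO and 1550 to 2291 RPKM in WT. The counts of calls in KO cTEC given here stand beside 13.3% of all genes called higher and 6.76% called lower. Of 8 B cell markers 3 were higher and 0 lower, Cd79b, Cr2 and Fcer2a, with Fcer2a higher by 1.76 (adjusted p = 0.0035). Their sum was 12.1 to 33.6 RPKM in KO cTEC and 2.99 to 6.08 RPKM in WT cTEC. Among 11 dendritic cell and macrophage markers limma called 0, also at an unadjusted p under 0.05, with a sum of 11.95 to 38.7 RPKM in KO and 9.16 to 27.9 RPKM in WT. Of 11 thymocyte markers 1, Ptcra, fell, with a sum of 33.3 to 49.0 RPKM in KO and 47.7 to 107 RPKM in WT. Of 7 immature mTEC markers 0 rose and 3 fell, Ly6a at -0.77, Itgb4 at -0.51 and Itga6 at -0.42, with a sum of 1744 to 2329 RPKM in KO and 2125 to 2485 RPKM in WT. Of 7 fibroblast markers 1, Pdgfrb, rose (0.92) and 3 collagen genes fell, with Col1a1 at -1.75, and the sum was 188 to 422 RPKM in KO and 401 to 461 RPKM in WT. Of 6 endothelial markers 1, Tek, rose (2.80) and 0 fell, with a sum of 5.85 to 13.5 RPKM in KO and 1.90 to 5.03 RPKM in WT. No marker of these lists was at 0 in every library.

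**Figure D5:**
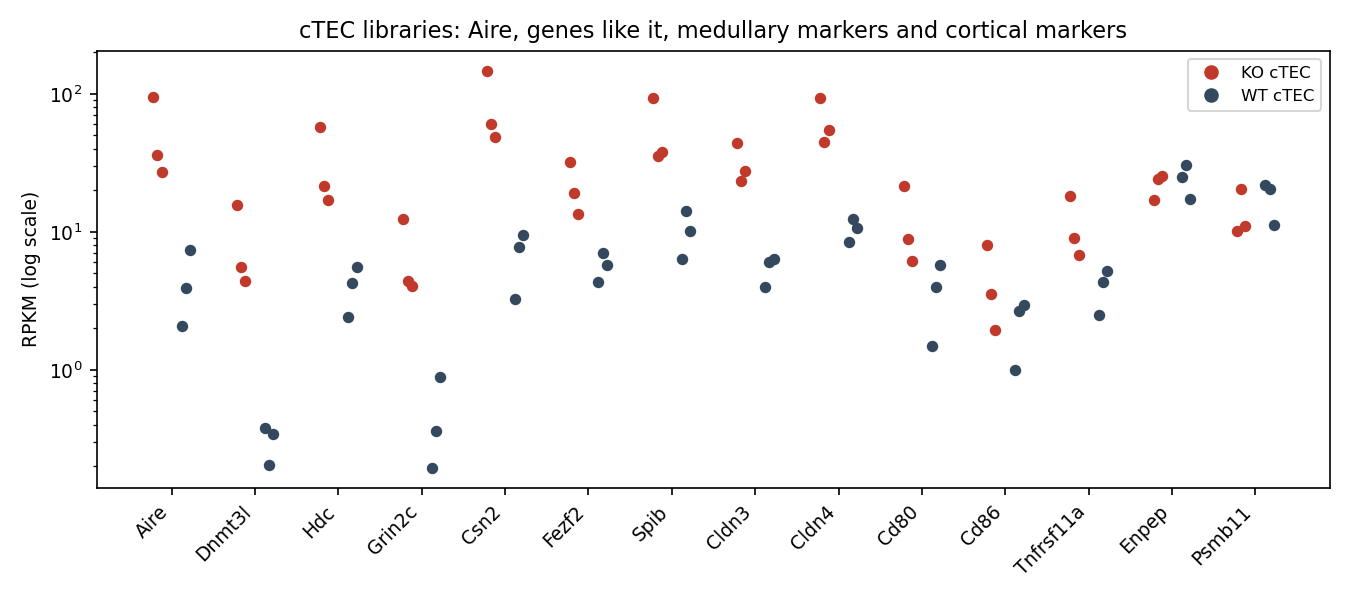
RPKM on a log axis in the 6 cTEC libraries, 3 KO (red, left) and 3 WT (dark blue, right), for Aire, genes with a like profile, medullary markers and the cortical markers Enpep and Psmb11. The KO libraries had 27.0 to 95.6 RPKM of Aire, all above the WT libraries at 2.09 to 7.39, whereas Cd86, Enpep and Psmb11 overlapped.

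Levels in cTEC were also set against mTEChi of the same genotype, a measure chosen after the values were seen. Aire in KO cTEC was at 8.91%, 3.34% and 2.52% of the KO mTEChi mean, against 0.308%, 0.582% and 1.09% of the WT mTEChi mean in WT cTEC. Fezf2 in KO cTEC was at 14.8%, 8.94% and 6.25%, against 1.98%, 3.21% and 2.62% in WT cTEC. Cd80 was at 21.1%, 8.72% and 6.08% in KO cTEC, against 1.95%, 5.17% and 7.48% in WT cTEC. In mTEClo, Aire was at 3.09%, 2.003% and 1.52% in KO, against 1.14%, 1.35% and 1.89% in WT. In every cTEC and mTEClo library, Aire had a lower percentage than each of the 14 mature mTEC markers.

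In mTEClo, 16.0% of all genes were called between the genotypes, and the lists around Aire were mixed. Their counts are to be read against 7.93% of all genes called higher and 8.04% called lower. Of 10 NF-kB genes 3 rose in KO mTEClo, Tnfaip3 (0.94), Rel (0.83) and Nfkbia (0.60), and 0 fell. Of the SAND and Sp100 family 0 of 6 rose and 2 fell, Sp100 and Sp110. Of 7 immature mTEC markers 0 rose and 3 fell. The neighbours Dnmt3l and Pfkl rose, Pfkl by 0.39, and Pwp2 fell (-0.46). Of the 14 mature mTEC markers 2 rose and 2 fell in KO mTEClo, against 7.93% of all genes called higher and 8.04% lower. The risers were Cldn3 (1.02, adjusted p = 0.0067) and Cldn4 (0.93, adjusted p = 0.0052). Ciita (-0.47, adjusted p = 0.0079) and H2-Eb1 fell. Of the ligands and decoy limma called 0 of 6, with 1 higher at an unadjusted p under 0.05. Of the receptors Tnfrsf1a alone was lower, and of the adaptors and kinases Traf5 alone was lower. The ratio of Aire to Fezf2 was 0.583, 0.462 and 0.404 in KO mTEClo, against 0.136, 0.144 and 0.186 in WT mTEClo. In cTEC it was 3.001, 1.87 and 2.01 in KO, against 0.481, 0.562 and 1.29 in WT, so that the genotypes did not overlap in this ratio in any population. They did overlap in the ratio of Aire to Cd80 in mTEClo, which was 4.90, 3.50 and 3.33 in KO, against 2.61, 2.38 and 4.39 in WT. In cTEC that ratio was 4.48, 4.07 and 4.39 in KO, against 1.39, 0.992 and 1.28 in WT. How many other genes keep the genotypes apart in such ratios was not tested, so the lack of overlap has no background here.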

How the data were processed

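RNA of flow-sorted thymic stromal cells was sequenced, per the labels' protocols. Per the submitters' processing notes, CASAVA 1.8.2 was used with the build mm10. The annotation, the aligner settings and any use of strand were not given in the sources used here. The authors deposited RPKM per gene, used here without rescaling, and a signal, the sum of aligned bases per gene. Between 9.72% and 18.8% of signal values up to 2000 bases were multiples of 100, so whole reads were not recovered and no count test was run.

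The 19451 genes that reached 0.1 RPKM in 3 or more libraries were tested on log2(RPKM + 0.1) with limma 3.58.1 in R 4.3.3 (6 group means, eBayes with a trend, two-sided, Benjamini-Hochberg over all genes tested). The fit was tested on simulated data. Exact permutation tests were adjusted over 9 comparisons of groups and gave 0.1125 for 8 of them and 0.2 for the other. Fold changes of genes near 0 depend on the added 0.1.

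Named genes were Aire, its neighbours, the 10 genes most like it, listed regulators and relatives, the 5 mature mTEC markers Cd80, Cd86, Ciita, H2-Aa and Fezf2, and, in each remaining list, the member with the lowest adjusted p between mTEChi genotypes and that with the highest RPKM in WT mTEChi. Other members were named after their values were seen, where few of a list were called. The gene, the 16 lists and the tests were chosen with earlier results of these data known. Of 162 list entries, 2 did not match a symbol and were not used. Alternatives were other pseudocounts, filters, scalings, spread models, a replicate block and leaving out each library. The replicate numbers were checked for pairing by the correlation of deviations from the group means. Only WT mTEClo and WT cTEC had all 3 same-numbered pairs above 0.1 (r = 0.107, 0.168 and 0.154), a pairing that comes from the values and not from the labels. With the block, which was shared by both genotypes, Aire kept its call in that comparison (1.27, limma adjusted p = 0.036).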

Additional observations from a re-analysis of the deposited data

Results flagged for a closer look

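The KO excess of Aire differed between populations by a test of the difference itself. The genotype effect in mTEChi minus that in cTEC was -2.82 on the log2 scale (limma adjusted p = 0.0011), with KO above WT in 3 of 3 libraries in both populations. The median of all genes in that comparison was -0.44. The effect in mTEClo minus that in cTEC was -2.27 (adjusted p = 0.046), a call that did not hold with these groups fitted alone (adjusted p = 0.21).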

How the results depend on the processing

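The 113 differences of other named genes were each recomputed under the alternatives, which gave 3273 values. Of these, 3104 kept their direction and their side of the threshold, 79 lost a call, 73 gained one and 17 changed sign. For Aire, the differences between mTEChi and either other population in both genotypes, and the genotype effect in mTEChi minus that in cTEC, kept direction and call in all alternatives run. The effect in mTEChi minus that in mTEClo stayed uncalled.

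With only the groups compared, Aire KO minus WT in mTEChi (0.66) became called, and KO minus WT in cTEC (3.49), mTEClo minus cTEC in WT (1.27) and the genotype effect in mTEClo minus that in cTEC (-2.27) lost their calls. With arrayWeights, KO minus WT became called in mTEChi (0.70, adjusted p = 0.037) and in mTEClo (1.24, adjusted p = 0.0045). The genotype effect in mTEClo minus that in cTEC also lost its call with a pseudocount of 1 (-2.06), no filter (-2.27), quantile normalization (-2.13), centring on housekeeping genes (-2.30), values recomputed from aligned bases (-2.27) and eBayes without a trend (-2.27). The causes were not tested.

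With 1 library left out, Aire KO minus WT ranged from 0.63 to 0.71 in mTEChi, from 0.94 to 1.45 in mTEClo and from 2.95 to 3.93 in cTEC. The difference mTEClo minus cTEC ranged from -1.37 to -0.46 in KO and from 0.83 to 1.72 in WT, and the genotype effect in mTEClo minus that in cTEC from -2.71 to -1.73.

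The mean of Aire in KO mTEChi was 1163 RPKM when recomputed from aligned bases, 944 after quantile normalization and 1189 after centring on housekeeping genes. In WT mTEChi it was 727 when recomputed and 772 after quantile normalization. Among the 10 genes most like Aire, 3 remained by Spearman's rho and 4 with WT libraries only.

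Quantile normalization moved the median of all genes by 0.46 for KO minus WT in mTEChi, and higher calls made up 55.0% of calls with it and 15.3% without. Centring on housekeeping genes moved that median by 0.12, that in mTEClo by -0.16 and that in cTEC by -0.13, and made higher calls 21.7% of those in mTEChi. They then made up 16.4% in mTEClo, against 49.7%, and 35.6% in cTEC, against 66.4% (50.4% after quantile normalization). Signs changed under quantile normalization for Pwp2 (0.091), Trpm2 (0.47), 1810043G02Rik (0.24), Agpat3 (0.032), Jmjd6 (0.0048), Deaf1 (0.12), Gmeb1 (0.48), Ddx5 (-0.076), Pecam1 (0.59), B2m (-0.38) and Prdm1 (0.37). They changed on the housekeeping scale for Agpat3 (0.11), Gmeb1 (0.0065) and Fezf2 (0.096), and with 1 library left out for Agpat3 (-0.061 to 0.014), Fezf2 (-0.048 to 0.0022) and Pecam1 (-0.34 to 0.089).

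Genes called for KO minus WT numbered 3105 in mTEClo, against 5035 on the housekeeping scale, 6363 with arrayWeights and 1480 to 1982 without KO mTEClo replicate 1 or 2 or WT mTEClo replicate 1 or 3. In cTEC they numbered 3908, against 18 with its groups alone. For mTEClo minus cTEC in KO they numbered 7153, against 3761 with these groups alone. For the genotype effect in mTEClo minus that in cTEC they numbered 824, against 144 with these groups alone and 476 to 1545 with 1 library left out.

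Of 45 correlations between same-numbered libraries 7 were above 0.1 (r from -0.30 to 0.21). In 14 of 15 pairs of groups, KO against WT included, not every r passed 0.1. Within a genotype every r was positive, from 0.0065 to 0.21, whereas between genotypes both signs occurred. A limit of 0.1 cannot show that the numbers do not pair the libraries, and the labels do not say. With the number as a replicate block, Aire kept its calls except the genotype effect in mTEClo minus that in cTEC (-2.27, adjusted p = 0.067). The block gives each number the same shift in all 6 groups, so it cannot take up a pairing that differs between genotypes. Aire fell from replicate 1 to 3 in KO mTEClo and KO cTEC and rose in WT mTEClo and WT cTEC. A block within each genotype was not fitted. The block moved no count of called genes by over 1.5 times. Of the named genes, Trpm2 gained a call with it and Cldn4 in mTEChi lost one.

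Depth on genes was 4.54 Gb or more per library, and the number of libraries, 3 per group, limits the precision.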
